A study of Mus musculus with 8 samples.

Results

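The cytosolic sulfotransferases and the enzyme that supplies their sulfate donor were measured as mRNA in male mouse livers that lacked the bile acid receptor FXR, with or without the transcriptional repressor BCL6 in hepatocytes. The genes were 10 rows of a liver RNA-seq count table of 24940 genes, taken by symbol: the 9 sulfotransferases *Sult1a1*, *Sult1b1*, *Sult1c2*, *Sult1d1*, *Sult1e1*, *Sult2a1*, *Sult2a2*, *Sult3a1* and *Sult5a1*, and *Papss2*. The table held 12 other rows whose symbol starts with Sult, which are given beside them. Livers of 4 FxrKO males were compared with livers of 4 Bcl6LKOFxrKO males, all of the C57BL/6 strain. Every mouse carried a homozygous whole-body loss of *Fxr* and the floxed *Bcl6* fl/fl alleles. The Bcl6LKOFxrKO males also carried *Alb*-Cre, in which the albumin promoter drives the Cre recombinase in hepatocytes, so *Bcl6* stays intact in the other cells of the liver. Neither group had FXR, and no liver with FXR was analysed here, so each difference below is between *Fxr*-null livers with and without the *Alb*-Cre deletion of *Bcl6*, and effects of Cre itself cannot be told apart from it. The study's methods put mice under ad libitum feeding or a short fast without saying which held for these livers, and the age of the mice was not given in the sources used here.

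Cytosolic sulfotransferases move a sulfonate group from PAPS, the activated sulfate donor, onto small molecules, which become more soluble in water and leave the cell through carriers. In the liver the SULT1 enzymes act mainly on phenols, thyroid hormones and estrogens, whereas the SULT2A enzymes act on hydroxysteroids such as DHEA and on bile acids, whose sulfates are less toxic and are excreted. PAPS itself is made from inorganic sulfate and ATP by the PAPS synthases. Several hepatic sulfotransferases of the mouse are known to differ between the sexes and to respond to nuclear receptors.

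The libraries held 7586241 to 11839503 counts each. Levels are given as CPM, the counts relative to the library size after TMM scaling for its composition, and levels of different genes are compared only as CPM per kilobase of the listed transcript. *Bcl6* was measured at 56.2, 65.1, 21.1 and 55.6 CPM in the FxrKO livers and at 11.9, 4.61, 5.54 and 7.71 CPM in the Bcl6LKOFxrKO livers, which matches the labels without overlap, although FxrKO liver 3 stood low. *Nr1h4*, which encodes FXR, still gave 56.7 to 62.6 CPM in the FxrKO livers, so counts over its whole transcript do not check the *Fxr* allele. In the Bcl6LKOFxrKO livers it gave 39.4 to 48.1 CPM, lower without overlap but not called (log2 fold change -0.46). Hepatocyte markers dominated every liver, and their 7 genes summed to 54208 to 67041 CPM in FxrKO and 145328 to 162227 CPM in Bcl6LKOFxrKO livers, the difference being that of *Alb*, which took 4.04 to 5.16% of the counts in the former and 11.9 to 13.2% in the latter. Summed markers of cholangiocytes (41.4 to 65.8 against 74.2 to 133.9 CPM), stellate cells and fibroblasts (40.2 to 63.2 against 83.5 to 115.9 CPM), macrophages (187.1 to 256.6 against 273.3 to 407.1 CPM) and T and B cells (7.56 to 10.8 against 13.2 to 19.4 CPM) were higher in every Bcl6LKOFxrKO liver, endothelial markers overlapped, and 2 of 6, 2 of 5, 2 of 5, 1 of 5 and 1 of 5 of those lists' genes were called higher. Over all tested genes the share called higher was 14.1%. In whole liver, fewer cells of a type and less RNA per cell cannot be told apart, and the part of this marker shift in the results below was not tested.

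All 10 genes passed the filter on low counts, 5 were called higher in Bcl6LKOFxrKO livers (*Sult1a1*, *Sult1c2*, *Sult2a1*, *Sult2a2* and *Sult3a1*), 2 were called lower (*Sult1d1* and *Sult5a1*) and 3 were not called (*Sult1b1*, *Sult1e1* and *Papss2*). A call required an adjusted p under 0.05 by edgeR's quasi-likelihood test, adjusted by the Benjamini-Hochberg method over 12340 genes, and a log2 fold change beyond 0.5 in either direction. Across all tested genes 14.1% were called higher and 9.84% lower, and 31.3% did not overlap between the genotypes, as did 5 of the 10 genes. *Sult5a1* had 4 FxrKO livers and 1 Bcl6LKOFxrKO liver over the filter's cutoff, which favours a difference without forcing it. Because *Sult2a1*, *Sult2a2* and *Sult3a1* passed the filter through the Bcl6LKOFxrKO livers alone, they had to differ, and these counts are given as a description. The same limit holds for *Sult2a3*, *Sult2a5*, *Sult3a2* and *Sult4a1* below, which also passed through the Bcl6LKOFxrKO livers alone.

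**Figure D1:**
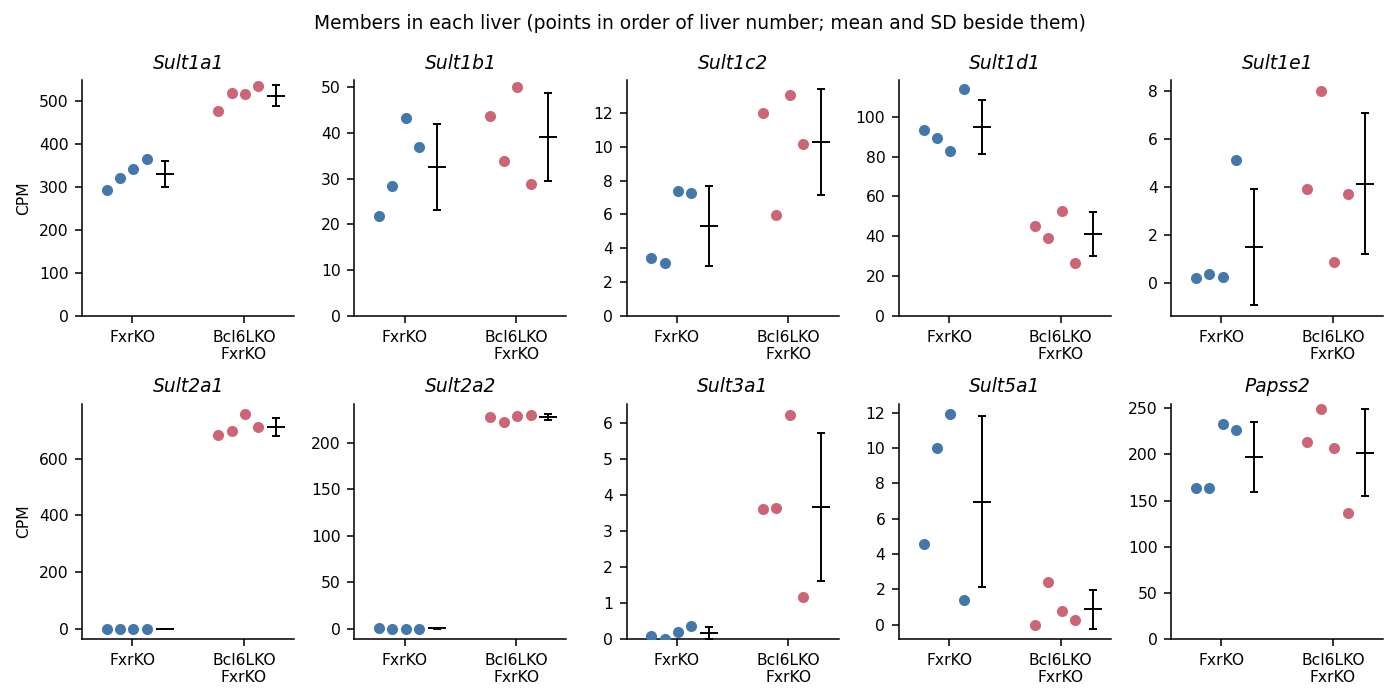
Each panel plots the CPM of 1 gene on its own linear axis for FxrKO livers 1 to 4 (blue) and Bcl6LKOFxrKO livers 5 to 8 (red), with the mean and SD beside the points. *Sult2a1* and *Sult2a2* sat at or near 0 in FxrKO and above 685 and above 222 CPM in Bcl6LKOFxrKO, *Sult1a1* rose and *Sult1d1* fell without overlap, and the values of *Papss2* overlapped between them.

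The SULT2A enzymes are encoded by a cluster on chromosome 7, and its members share much of their sequence. In mm10 the 8 Sult2a rows lie within 869 kb (chr7:13623967-14492926) with no other row of the table between them. Their coding sequences, from the GENCODE annotation of the same assembly, are shown because the near-identity of the genes that appeared bears on how their reads can be told apart, and because the gene that fell is the least like *Sult2a1*. The first 90 coding bases of 5 of them are printed in lower case, with capitals at each base that differs from *Sult2a1* at the same position counted from the start codon.
Sult2a1: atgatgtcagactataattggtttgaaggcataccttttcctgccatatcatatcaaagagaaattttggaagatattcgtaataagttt
Sult2a2: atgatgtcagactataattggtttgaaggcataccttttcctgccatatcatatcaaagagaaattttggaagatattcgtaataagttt
Sult2a5: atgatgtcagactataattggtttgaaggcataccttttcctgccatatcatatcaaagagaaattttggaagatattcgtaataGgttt
Sult2a3: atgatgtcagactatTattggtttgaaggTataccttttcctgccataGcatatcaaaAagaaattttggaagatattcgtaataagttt
Sult2a8: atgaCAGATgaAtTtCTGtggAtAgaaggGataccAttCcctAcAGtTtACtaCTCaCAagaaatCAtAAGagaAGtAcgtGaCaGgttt
*Sult2a1* and *Sult2a2* did not differ over these bases, *Sult2a5* differed at 1, *Sult2a3* at 4 and *Sult2a8* at 37. Over the aligned bases of the coding sequences, with gaps left out, identity to *Sult2a1* was 97.9% for *Sult2a2*, 94.9% for *Sult2a5*, 93.7% for *Sult2a3* and 69.4% for *Sult2a8*. The annotated *Sult2a2* coding sequence holds only 582 bases against 855 for *Sult2a1*, so its 97.9% leaves out 273 bases of *Sult2a1*. Of the windows of 100 bases, the length of the reads, 11.4% in the *Sult2a1* transcript and 34.6% in the *Sult2a2* transcript had an exact copy in a transcript of another gene, mainly *Sult2a2* and *Sult2a5* respectively. Only reads with 1 location were kept, so reads from such windows were lost, the levels of both genes are underestimates, and a share of their reads may be misplaced.

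*Sult2a1*, the hydroxysteroid and bile acid sulfotransferase (chr7:13796246-13837410, minus strand), was all but absent from FxrKO livers. It had 0, 0, 0 and 2 counts in the 4 FxrKO livers and 6814, 5749, 7777 and 7857 counts in the 4 Bcl6LKOFxrKO livers, the latter equal to 685.4, 696.8, 756.5 and 712.5 CPM. The genotypes were separated by more than 3 orders of magnitude, and the 4 Bcl6LKOFxrKO livers lay close together, with a coefficient of variation of 4.37%. The ratio of the summed counts, scaled by library, was 13397 with a 95% exact interval of 3708 to 110629 that covers counting error only (adjusted p = 1.01e-11, edgeR). Both FxrKO counts came from liver 4, and without it the fitted log2 fold change went from 13.4 to 15.72, a value that then depends on the prior count of the fit. Per kilobase, *Sult2a1* reached 703.6 ± 30.8 (SD, n = 4) CPM in Bcl6LKOFxrKO livers, the 85th highest mean among the 12340 tested genes.

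*Sult2a2*, its neighbour on the plus strand (chr7:13733506-13779637), behaved alike. FxrKO livers held 3, 0, 0 and 1 counts and Bcl6LKOFxrKO livers 2272, 1840, 2353 and 2542 counts, or 228.5, 223.0, 228.9 and 230.5 CPM. These 4 values spread by a coefficient of variation of only 1.44%, the smallest among the 10 genes in either genotype. The ratio of summed counts was 2140 (95% exact interval 835.4 to 7855, adjusted p = 3.40e-11, edgeR). The fitted log2 fold change of 10.9 became 12.19 without FxrKO liver 1, which held 3 of the 4 counts of its genotype. The length-scaled level of *Sult2a1* was 2.18, 2.27, 2.40 and 2.24 times that of *Sult2a2* in livers 5 to 8, a ratio that depends on the 735 bases listed for the *Sult2a2* transcript and on the shared windows above.

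Further members of the cluster appeared with them at lower levels. *Sult2a3* had 0 counts in every FxrKO liver and 142, 65, 212 and 146 counts in the Bcl6LKOFxrKO livers, where its mean of 14.0 ± 5.23 CPM (SD, n = 4) was at least 43.4-fold higher than a floor of 3 counts per library. *Sult2a5* likewise went from 0 counts in every FxrKO liver to 72, 45, 133 and 74 counts, at least 25.0-fold higher than that floor. The *Sult2a5* counts are underestimates too, since 16.6% of its windows had an exact copy elsewhere, mainly in *Sult2a2*, whereas no window of *Sult2a3* did. *Sult2a4* and *Sult2a6* never exceeded 2 counts, and *Sult2a7* never exceeded 5.

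*Sult2a8*, a hepatic member that has been described to sulfate primary bile acids, moved the other way within the same cluster (chr7:14410686-14446587, minus strand). Its levels were 639.9, 714.6, 966.5 and 890.9 CPM in FxrKO livers and 29.4, 40.6, 80.4 and 20.7 CPM in Bcl6LKOFxrKO livers, so the highest of the latter stood far below the lowest of the former. The log2 fold change was -4.23 ± 0.43 (SE, adjusted p = 1.75e-04, edgeR). In FxrKO livers *Sult2a8* was the most abundant sulfotransferase per kilobase (375.6 ± 70.9 CPM per kb, SD, n = 4), and in Bcl6LKOFxrKO livers it fell to 20.0 ± 12.3. The 8 Sult2a rows together still rose, from 376.1 ± 70.7 to 1058 ± 51.3 CPM per kb. The size of that rise depends on the listed lengths, 2138 bases for *Sult2a8* against 1013 for *Sult2a1* and 735 for *Sult2a2*. Without length scaling it is much smaller, as mean *Sult2a8* went from 803.0 to 42.8 CPM while *Sult2a1* and *Sult2a2* reached 712.8 and 227.7 CPM. The nearest genes outside the cluster cannot show whether they share the pattern, as *Bsph2* had 0 counts in all 8 livers and *Nlrp5-ps* did not pass the filter.

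**Figure D2:**
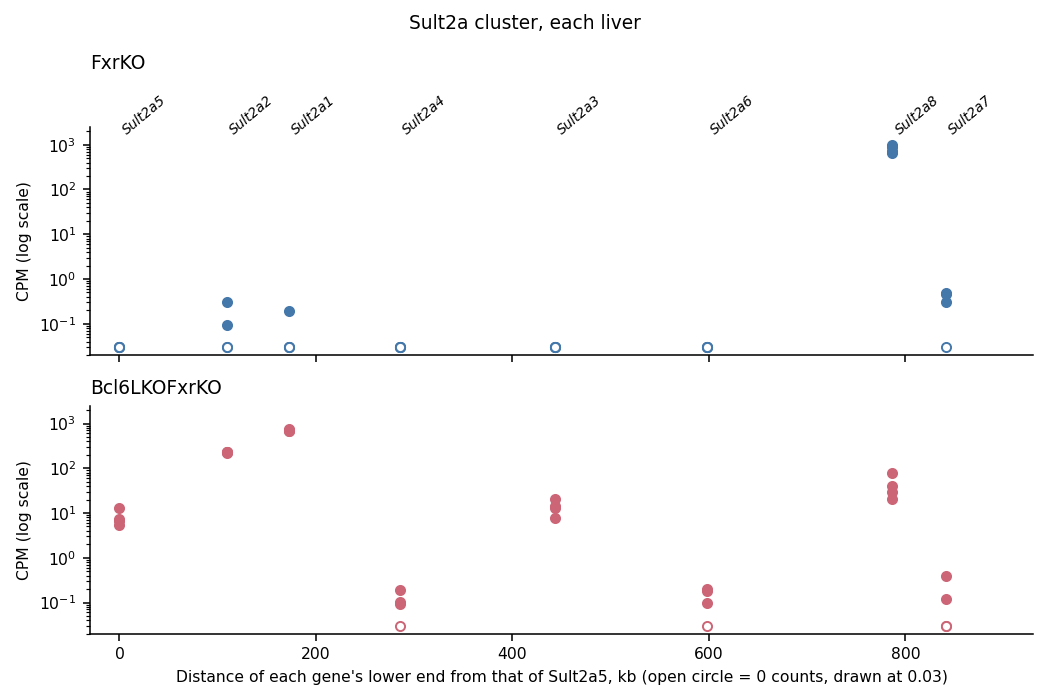
CPM on a log axis is plotted for the 8 Sult2a genes against the distance of each gene's lower end from that of *Sult2a5* in kilobases, with 1 point per liver, FxrKO above and Bcl6LKOFxrKO below. Open circles are livers with 0 counts, and the high level moves from *Sult2a8* at the right of the cluster to *Sult2a2* and *Sult2a1* near its left end.

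Promoter windows are shown for *Sult2a5* and *Sult2a8*, which lie toward opposite ends of the cluster and moved in opposite directions, and for *Sult3a1*, described below. Each runs from 250 bases before to 50 bases after the start site in GRCm38.p6 (RefSeq). BCL6 is known to bind sites like those of the STAT factors, so the letters TTCNNNGAA, which read the same on both strands, were searched, and a match is in capitals.
Sult2a5, chr7:13623717-13624016, plus strand: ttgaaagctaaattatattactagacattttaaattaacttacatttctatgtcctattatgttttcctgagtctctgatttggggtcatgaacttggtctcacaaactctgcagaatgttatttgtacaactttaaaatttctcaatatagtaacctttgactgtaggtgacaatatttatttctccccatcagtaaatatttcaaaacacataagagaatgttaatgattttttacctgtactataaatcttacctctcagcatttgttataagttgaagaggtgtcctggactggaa
Sult2a8, chr7:14446538-14446837, minus strand: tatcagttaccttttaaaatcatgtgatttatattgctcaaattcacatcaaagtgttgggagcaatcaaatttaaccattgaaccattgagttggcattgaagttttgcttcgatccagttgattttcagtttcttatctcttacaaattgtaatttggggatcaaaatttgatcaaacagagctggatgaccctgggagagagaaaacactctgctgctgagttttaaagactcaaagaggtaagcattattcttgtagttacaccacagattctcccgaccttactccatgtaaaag
Sult3a1, chr10:33857472-33857771, plus strand: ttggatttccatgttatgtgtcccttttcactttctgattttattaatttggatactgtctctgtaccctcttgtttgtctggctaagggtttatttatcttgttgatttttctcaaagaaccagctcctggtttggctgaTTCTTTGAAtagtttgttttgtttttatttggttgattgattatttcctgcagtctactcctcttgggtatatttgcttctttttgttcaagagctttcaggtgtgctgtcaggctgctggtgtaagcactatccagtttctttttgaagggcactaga
The *Sult3a1* window held 1 match, beginning 109 bases before the start site, and the windows of *Sult2a5* and *Sult2a8* held none. Across 32851 promoters of this length 8.3% held a match, and of the 22 promoters found for 18 of these genes 1 did. The hexamer AGGTCA, which many nuclear receptors are known to bind, on either strand, was in 4 of those 22 and in 16.3% of all. Those 4 were windows of *Papss2*, *Sult1b1*, *Sult1e1* and *Sult2a8*. The *Sult2a8* window among them (chr7:14438502-14438801) is not the printed one and does not match the start of the listed transcript. It held 2 hexamers and no TTCNNNGAA match. *Sult2a1* and *Sult2a2* had no entry in the promoter table.

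*Sult3a1*, which sulfates amines (chr10:33857722-33879475, plus strand), was also close to absent in FxrKO livers but stayed low in Bcl6LKOFxrKO livers. Its counts were 1, 0, 2 and 4 in FxrKO and 36, 30, 64 and 13 in Bcl6LKOFxrKO livers, with liver 8 low and liver 7 high and no overlap between genotypes. The ratio of summed counts was 19.4 (95% exact interval 9.18 to 49.1, adjusted p = 4.23e-04, edgeR), and its log2 fold change of 4.21 became 4.88 without FxrKO liver 4. *Sult3a2*, which lies beside it within 113.1 kb and shares 90.9% of its coding sequence, had 0, 0, 0 and 1 counts in FxrKO and 23, 16, 14 and 16 in Bcl6LKOFxrKO livers (adjusted p = 4.34e-05). Its single FxrKO count was in liver 4, without which that genotype held none. *Rsph4a*, a radial spoke gene of cilia 25.6 kb from *Sult3a1*, was called higher as well, from 0.373 ± 0.333 to 1.63 ± 0.472 CPM (log2 fold change 1.99 ± 0.52, SE, adjusted p = 0.0116). With at most 0.756 CPM in any FxrKO liver, *Rsph4a* too passed the filter through the Bcl6LKOFxrKO livers alone, so it had to differ.

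Among the SULT1 genes, *Sult1a1* rose and *Sult1d1* fell. *Sult1a1*, the main phenol sulfotransferase of liver (chr7:126672865-126676418, minus strand), measured 293.8, 320.6, 340.4 and 364.1 CPM in FxrKO and 477.5, 519.1, 516.0 and 533.9 CPM in Bcl6LKOFxrKO livers. The groups did not overlap, and the log2 fold change was 0.63 ± 0.11 (SE, adjusted p = 9.22e-04, edgeR), small beside those of the cluster on the same chromosome. It fell to 0.47 when libraries were scaled by total counts alone, under the fold threshold, and the same scaling shifts the median of all genes by -0.16. Its neighbours *Sgf29*, which ends 0.086 kb away, and *Slx1b* did not pass the test (log2 fold changes 0.02 ± 0.20 and 0.17 ± 0.15).

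*Sult1d1*, a sulfotransferase of catecholamines and eicosanoids, shares a 78.3 kb stretch of chromosome 5 (chr5:87513339-87591611) with *Sult1b1* and *Sult1e1*, and the 3 genes did not move together. *Sult1d1* measured 93.1, 89.5, 82.9 and 113.9 CPM in FxrKO and 45.4, 39.0, 52.6 and 26.6 CPM in Bcl6LKOFxrKO livers, with every Bcl6LKOFxrKO liver below every FxrKO liver (log2 fold change -1.21 ± 0.18, SE, adjusted p = 3.63e-04, edgeR). *Sult1b1*, which acts on thyroid hormones, measured 21.8, 28.4, 43.2 and 36.9 against 43.8, 33.8, 50.1 and 28.9 CPM, overlapping values with a log2 fold change of 0.26 ± 0.22 (adjusted p = 0.396). The flanking rows *Ugt2a1* and *Mir3969* had 0 counts in every liver.

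*Sult1e1*, the estrogen sulfotransferase, was decided by a single liver. FxrKO livers 1 to 3 held 2, 3 and 2 counts and liver 4 held 54, whereas the Bcl6LKOFxrKO livers held 39, 66, 9 and 41 counts. FxrKO liver 4 thus lay within the range of the other genotype, and the log2 fold change of 1.37 ± 1.01 did not pass the test (adjusted p = 0.348, edgeR). Without that liver it was 3.89 ± 0.80 (adjusted p = 0.00604). The same liver was not low in *Bcl6*, at 55.6 CPM.

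*Sult1c2* and *Sult5a1* were called on thin evidence. *Sult1c2*, on chromosome 17, measured 3.43, 3.12, 7.41 and 7.28 CPM in FxrKO and 12.0, 5.94, 13.0 and 10.2 CPM in Bcl6LKOFxrKO livers, so that liver 6 lay within the FxrKO range (log2 fold change 0.95 ± 0.31, SE, adjusted p = 0.0385, edgeR). Without liver 1, 2, 5, 7 or 8 its adjusted p ranged from 0.0904 to 0.101. *Sult5a1*, a little studied member on chromosome 8, measured 4.57, 9.98, 11.9 and 1.42 CPM in FxrKO and 0, 2.42, 0.778 and 0.272 CPM in Bcl6LKOFxrKO livers, where FxrKO liver 4 lay under liver 6 (log2 fold change -3.08 ± 0.93, SE, adjusted p = 0.0402). Without liver 6 the log2 fold change was -4.25. Without liver 1, 2, 3, 5, 7 or 8 the adjusted p of *Sult5a1* ranged from 0.0545 to 0.114, all above the threshold. Of its neighbours, *Cpne7* did not pass the filter and *Dpep1*, a dipeptidase gene, went from 1.18 ± 0.474 to 2.67 ± 1.35 CPM (adjusted p = 0.0497).

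*Sult4a1*, which is known chiefly as a brain sulfotransferase, had 3, 0, 0 and 3 counts in FxrKO and 34, 143, 60 and 52 counts in Bcl6LKOFxrKO livers, with liver 6 far above the others (adjusted p = 9.57e-04, edgeR). Its ratio of summed counts was 45.8 (95% exact interval 20.8 to 125.8), and its log2 fold change of 5.49 became 4.76 without liver 6. *Sult1c1* had 0 counts in every liver, and *Sult2b1*, *Sult6b1* and *Sult6b2* never exceeded 3. Of the 14 sulfotransferases with at least 10 counts in some liver, 8 had their highest Bcl6LKOFxrKO value in liver 7 (among them *Sult2a1*, *Sult2a3*, *Sult2a5*, *Sult2a8* and *Sult3a1*), which is given as a description.

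**Figure D3:**
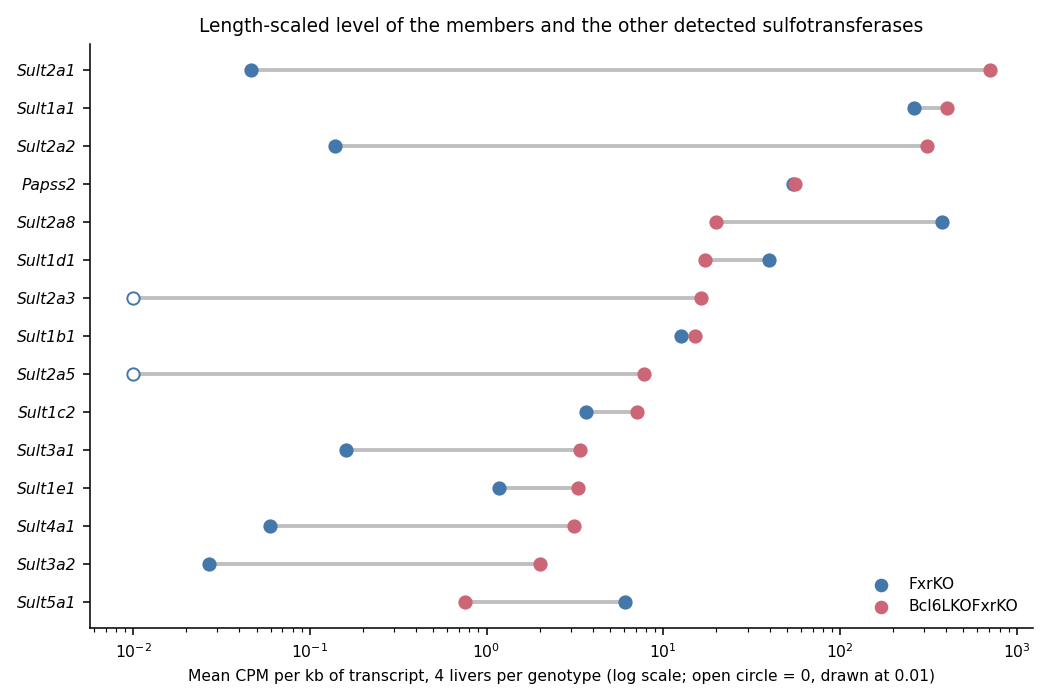
Mean CPM per kilobase of transcript in 4 livers of each genotype is plotted on a log axis for the 10 genes and the 5 other sulfotransferases that passed the filter, with a grey line joining the genotypes. The longest lines are those of *Sult2a1*, *Sult2a2* and, drawn from 0, *Sult2a3* and *Sult2a5*, all toward Bcl6LKOFxrKO, and *Sult2a8* has the longest line toward FxrKO.

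Per kilobase, the order of the 9 sulfotransferases in FxrKO livers ran from *Sult1a1* (260.7 ± 23.6 CPM per kb) through *Sult1d1* (39.8 ± 5.61) and *Sult1b1* (12.6 ± 3.62) to *Sult5a1* (6.06 ± 4.20), *Sult1c2* (3.65 ± 1.62) and *Sult1e1* (1.18 ± 1.94), with *Sult3a1*, *Sult2a2* and *Sult2a1* under 1. In that order the mean ± SD of *Sult1b1* and *Sult5a1*, of *Sult5a1* and *Sult1c2*, and of *Sult1c2* and *Sult1e1* overlapped. In Bcl6LKOFxrKO livers it ran from *Sult2a1* (703.6 ± 30.8) through *Sult1a1* (404.4 ± 19.0), *Sult2a2* (309.8 ± 4.45), *Sult1d1* (17.2 ± 4.63), *Sult1b1* (15.1 ± 3.68), *Sult1c2* (7.06 ± 2.15), *Sult3a1* (3.37 ± 1.90) and *Sult1e1* (3.30 ± 2.34) to *Sult5a1* (0.755 ± 0.943). There the levels of the first 4 were separated by more than their SDs, but the order of *Sult1a1* and *Sult2a2* is not settled, because 34.6% of the windows of *Sult2a2* were shared and lost against 2.2% of those of *Sult1a1*. *Sult1d1* and *Sult1b1* overlapped, and so did each neighbouring pair from *Sult1c2* to *Sult5a1*.

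The summed level of the 9 sulfotransferases was 286.7, 313.1, 336.4 and 360.7 CPM per kb in FxrKO livers and 1416, 1447, 1524 and 1473 in Bcl6LKOFxrKO livers, a ratio of means of 4.52. With the other 12 rows included, among them *Sult2a8*, it was 700.3 ± 99.2 against 1515 ± 62.3 (SD, n = 4 each), a ratio of 2.16. That ratio depends on the listed lengths and is much smaller in CPM not divided by length, because the *Sult2a8* transcript is the longer one. The make-up changed more than the sum. *Sult2a8* made up 51.0 to 57.3% and *Sult1a1* 34.1 to 39.6% of the sum in FxrKO livers, whereas *Sult2a1* made up 46.2 to 46.6%, *Sult1a1* 25.5 to 28.0% and *Sult2a2* 19.4 to 21.3% in Bcl6LKOFxrKO livers, where *Sult2a8* kept 0.641 to 2.35%. These sums were described without a test.

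**Figure D4:**
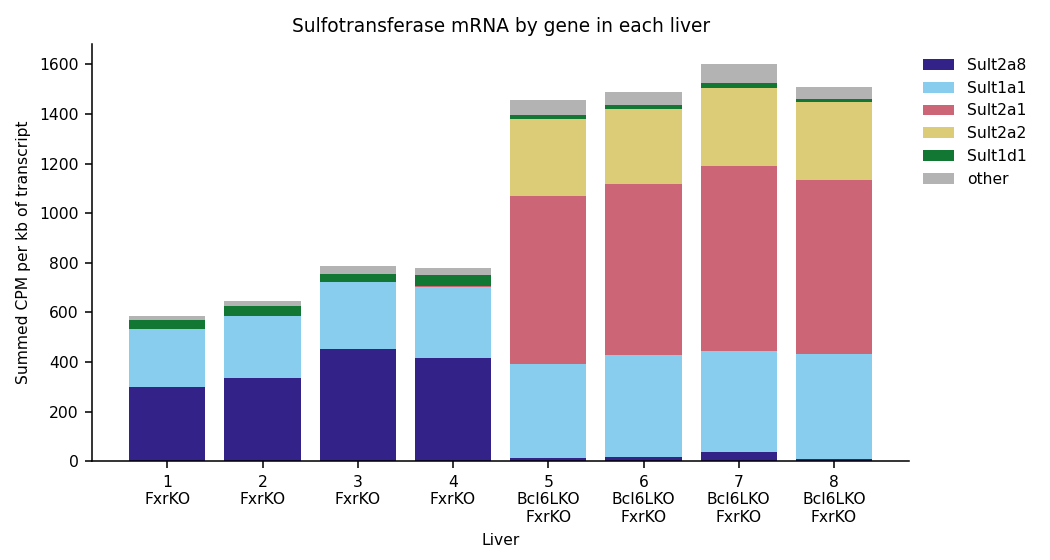
Stacked bars give the CPM per kilobase of each sulfotransferase, summed over all 21 rows with a Sult symbol, in livers 1 to 8 on a linear axis. The FxrKO bars reach 586.6 to 788.4 and are mostly *Sult2a8* and *Sult1a1*, and the Bcl6LKOFxrKO bars reach 1458 to 1603 and are mostly *Sult2a1*, *Sult1a1* and *Sult2a2*.

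The synthases of the sulfate donor were not called in either direction. *Papss2*, the PAPS synthase of liver (chr19:32620005-32667187, plus strand), measured 164.0, 164.1, 233.2 and 226.6 CPM in FxrKO and 213.9, 249.3, 207.4 and 137.0 CPM in Bcl6LKOFxrKO livers, which overlapped widely. Its log2 fold change was 0.03 ± 0.18 (SE, adjusted p = 0.906, edgeR) and its sign changed with the scaling and the livers kept. *Papss1*, the other synthase, was lower and likewise not called (12.1 ± 2.29 against 11.0 ± 2.55 CPM, log2 fold change -0.13 ± 0.20, adjusted p = 0.650). *Bpnt1*, the phosphatase that clears the spent donor, was 62.8 ± 4.57 against 51.0 ± 4.45 CPM (log2 fold change -0.30 ± 0.11, adjusted p = 0.0534). Of the 9 listed genes of PAPS supply, transport and clearance 7 were tested, and *Slc26a1*, a sulfate anion exchanger, was the only gene called, at 359.7 ± 19.2 against 226.0 ± 18.5 CPM (log2 fold change -0.67 ± 0.11, adjusted p = 5.15e-04). Their median log2 fold change was -0.05, against 0.01 for all tested genes, of which 14.1% were called higher and 9.84% lower. Next to *Papss2*, *Minpp1* and *Atad1* were not called.

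Among genes that make cysteine or turn it into sulfate, those called were lower, and uncalled genes moved both ways. Of 10 tested, 3 fell and none rose past the thresholds, with a median log2 fold change of -0.37. Over all tested genes 9.84% fell and 14.1% rose. Without the fold threshold 5 of the list had an adjusted p under 0.05, all of them lower. These added *Got2* (log2 fold change -0.49, adjusted p = 0.00315, edgeR) and *Mpst* (-0.45, adjusted p = 0.0483, edgeR). *Cth*, which makes cysteine from cystathionine, fell by 0.94 on the log2 scale (SE 0.15, adjusted p = 5.73e-04), *Got1*, the cytosolic aspartate aminotransferase, by 0.96 (SE 0.19, adjusted p = 0.00270), and *Ethe1*, the mitochondrial persulfide dioxygenase, by 0.68 (SE 0.16, adjusted p = 0.00570). *Cdo1*, which had the most CPM of the list, was higher in every Bcl6LKOFxrKO liver but not called (1286 ± 64.0 against 1514 ± 124.3 CPM, log2 fold change 0.24 ± 0.11, adjusted p = 0.142). Also uncalled but without overlap, *Sqor* was higher and *Got2* lower. The summed list overlapped, at 3348 to 3681 CPM in FxrKO and 3136 to 3579 CPM in Bcl6LKOFxrKO livers. That sum was not scaled by length, and *Cdo1* gave the largest part of it.

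Among sulfatases and their activators, which remove sulfate, 1 of 12 tested genes rose and 1 fell, with a median log2 fold change of 0.20. Neither count was above the share over all tested genes, 14.1% higher and 9.84% lower. *Galns*, a lysosomal sulfatase of glycosaminoglycans, rose from 12.3 ± 1.60 to 32.8 ± 4.18 CPM (log2 fold change 1.41 ± 0.14, adjusted p = 9.98e-06). *Arsa*, the sulfatase of sulfatide, fell from 59.2 ± 5.23 to 16.2 ± 2.57 CPM (log2 fold change -1.86 ± 0.14, adjusted p = 5.73e-07). *Sts*, the steroid sulfatase, had no row in the table analysed here.

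Of the carriers of sulfated steroids and bile acids, 5 of 10 tested genes were lower and 2 higher, beside 9.84% lower and 14.1% higher over all tested genes. The median of their log2 fold changes was -0.66. *Slco1a1*, an uptake carrier of sulfated steroids, fell from 261.1 ± 45.8 to 1.48 ± 0.682 CPM (log2 fold change -7.50 ± 0.26, adjusted p = 7.85e-10). *Slco1b2* and *Slc10a1*, uptake carriers of bile acids at the sinusoidal membrane, fell by 1.79 (SE 0.16, adjusted p = 5.20e-06) and by 2.15 (SE 0.21, adjusted p = 1.20e-05) on the log2 scale. The efflux carriers that were called moved both ways. *Abcc2*, also in the list, was not called (244.9 ± 43.9 against 261.1 ± 52.4 CPM, log2 fold change 0.09 ± 0.16, adjusted p = 0.699). *Abcc3* fell from 396.6 ± 19.5 to 211.7 ± 40.9 CPM (log2 fold change -0.91 ± 0.14, adjusted p = 4.27e-04) and *Abcg2* from 89.3 ± 4.91 to 43.6 ± 4.98 CPM (log2 fold change -1.03 ± 0.11, adjusted p = 2.07e-05). *Abcc4*, an efflux carrier of sulfated steroids and bile acids, rose from 6.39 ± 0.862 to 39.0 ± 12.3 CPM (log2 fold change 2.60 ± 0.22, adjusted p = 3.13e-06), and *Abcc1*, a related efflux carrier, rose by a log2 fold change of 0.94 ± 0.25 (adjusted p = 0.0119). *Slc10a6*, a carrier of steroid sulfates, had 3 counts over the FxrKO and 14 over the Bcl6LKOFxrKO livers and was not tested.

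Of the nuclear receptors known to act on sulfotransferase genes, 3 of 10 tested fell and 2 rose, with a median log2 fold change of -0.37. The 10 include *Nr1h4*, whose loss both genotypes shared. The shares over all tested genes were 9.84% lower and 14.1% higher, so the count that rose is near the background. *Ppara*, the fatty acid receptor, fell by 0.99 on the log2 scale (SE 0.17, adjusted p = 0.00104), *Rxra*, the shared partner receptor, by 0.60 (SE 0.13, adjusted p = 0.00365) and *Nr1i3*, which encodes CAR, by 0.64 (SE 0.20, adjusted p = 0.0338). *Esr1*, the estrogen receptor, rose by a log2 fold change of 1.22 ± 0.40 (adjusted p = 0.0448), and *Nr1h2*, an oxysterol receptor, by 0.55 ± 0.12 (adjusted p = 0.00376). The *Nr1i3* call was lost without liver 3, 4, 5, 6 or 7 (log2 fold change as small as -0.49, adjusted p up to 0.0913), the *Nr1h2* call without liver 4 or 8 (0.48 and 0.47), and the *Esr1* call without liver 1, 2, 3, 4, 5, 6 or 7 (adjusted p up to 0.0957). *Nr1i2*, which encodes PXR, was not called (57.7 ± 9.67 against 47.9 ± 8.40 CPM, log2 fold change -0.27 ± 0.15, adjusted p = 0.197), and *Vdr*, with 1 count over the FxrKO and 8 over the Bcl6LKOFxrKO livers, was not tested.

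**Figure D5:**
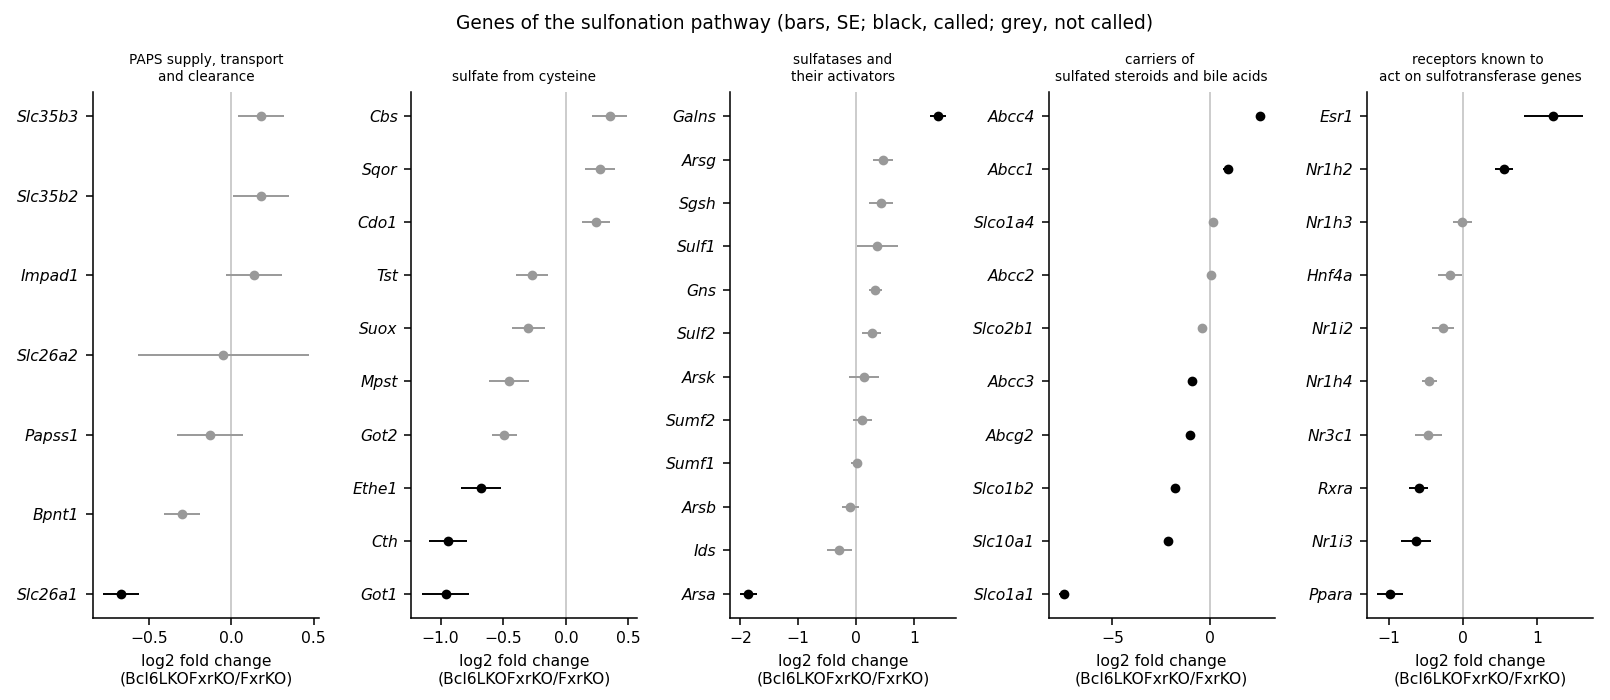
The log2 fold change (Bcl6LKOFxrKO over FxrKO, linear axis, bars SE) is plotted for the tested genes of the 5 pathway lists, 1 panel each with its own axis, black where called and grey where not. Most PAPS genes lie near 0, and the carriers spread from -7.50 for *Slco1a1* to 2.60 for *Abcc4*.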

How the data were processed

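Poly(A) RNA of 4 FxrKO and 4 Bcl6LKOFxrKO livers was sequenced as 100-base single-end reads from stranded libraries. STAR 2.5.2 placed them on mm10, allowing 4 mismatches and discarding any read that mapped to more than 1 place. With HOMER 4.10 the authors then made the deposited table, which lists unnormalized exon counts for a single transcript of each gene beside its length. Whether counting used strand is not given in the sources used here; no row of the 22 genes overlaps another row. Groups came from the genotype labels, and livers are numbered 1 to 8 as in the library names. The labels do not state litters or harvest days, so p-values measure only the spread between these livers. Replicate pairs differed beyond sampling noise (chi-square per degree of freedom 10.8 to 50).

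Counts were analysed with edgeR 4.0.16 in R 4.3.3 (filterByExpr, TMM, robust quasi-likelihood fit, Benjamini-Hochberg over 12340 genes), which was tested on simulated data. Means and SDs are of CPM. Ratios against few counts carry 95% exact (Clopper-Pearson) intervals from scipy 1.17.1, and 0 counts were set to a floor of 3 counts per library. Intervals and floors cover counting error only. Promoters and coding sequences came from RefSeq (GRCm38.p6) and GENCODE, aligned with Biopython 1.88. DESeq2 1.42.0, the study's tool, limma voom (limma 3.58.1) and other scalings, filters and subsets of livers were alternatives. The genes and lists were chosen with earlier results of these data known. Named were the 10 genes, the other sulfotransferases with at least 10 counts in a liver, neighbouring rows, up to 3 called genes per list and direction, a few set receptors and carriers, and the targeted genes. *Abcc2*, *Abcc3*, *Abcg2*, *Cdo1*, *Sqor*, *Got2*, *Mpst*, *Spp1* and *Sox9* were added after their values were seen. Pancreatic, intestinal and adipocyte marker lists were also summed. They gave 0 to 0 against 0 to 0.302 CPM, 29.1 to 55.4 against 8.75 to 19.2 CPM and 1.61 to 12.7 against 0 to 0.292 CPM.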

Additional observations from a re-analysis of the deposited data

Results flagged for a closer look

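*Sult1e1* in FxrKO liver 4 stood apart from the other livers of its genotype. Its 54 counts, 5.10 CPM, compared with 2 to 3 counts in the other 3 FxrKO livers, and its gap to the nearest of them was 0.966 of the group's whole range, above Dixon's 95% critical value for 4 values. Of the 24 groups of livers examined for the 14 detected sulfotransferases and *Papss2* it was the only liver past that value, and chance passes about 1 group in 20. *Sult4a1* in Bcl6LKOFxrKO liver 6 came closest to it among the rest, at 0.826.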

How the results depend on the processing

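Of the 15 alternatives, the calls of *Sult2a1*, *Sult2a2*, *Sult3a1* and *Sult1d1* were kept in every fit that tested them, and *Sult1b1* and *Papss2* were called in none. For *Sult2a1*, *Sult2a2* and *Sult3a1*, which passed the filter through the Bcl6LKOFxrKO livers alone, this is given as a description. Scaling by total counts alone left 3 of the 10 genes called higher, with *Sult1a1* at 0.47 and *Sult1c2* at 0.8, and gave 2135 genes called lower in all, 5 in sulfate from cysteine, 5 among the receptors and 0 receptors higher; it turned the split of all calls from 58.9% to 37.2% higher. *Papss2* changed sign to -0.13 under it, and to -0.05, -0.05 and -0.09 without liver 1, 2 or 6, and *Papss1* ranged from -0.25 to 0.02 when livers were left out. With no filter on low counts *Sult1c2* (0.92) and *Sult5a1* (-3.1) lost their calls, leaving 1 gene lower, and 1 receptor was higher. With limma voom *Sult5a1* (-4.13) lost its call, leaving 1 gene lower, and 2 sulfatases were higher. Requiring at least 10 counts in every liver removed genes absent from 1 genotype and left 2 higher, 1 lower and 0 of the other sulfotransferases higher. A fold threshold of 1 left 3 of the 10 genes higher, and 874 higher and 421 lower in all. Leaving out each liver in turn gave 4 to 6 genes higher and 1 to 2 lower among the 10, with log2 fold changes of 0.77 to 1.14 for *Sult1c2*, 0.85 to 3.89 for *Sult1e1*, -4.25 to -2.66 for *Sult5a1* and -0.09 to 0.18 for *Papss2*, 3 to 5 genes of sulfate from cysteine lower, 1 to 2 sulfatases higher and 0 to 1 receptors higher. The summed level of the 9 sulfotransferases rose by a ratio of 4.04 under total counts and 3.29 without length scaling, and of 4.35 to 4.69 without each liver. No paired analysis was made, because the library names in the labels run from 1 to 8 without a number shared between genotypes and no label ties animals to each other. Some animal numbers in the titles are consecutive between an FxrKO and a Bcl6LKOFxrKO liver. Whether such animals were littermates or were handled together is not given, so a shared origin was not accounted for. At these depths genes under a few CPM are imprecise; DESeq2 changed no call among the 10 genes.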
